A study of Mus musculus with 4 samples.

Results

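The sequences described here are the unassigned small RNAs of piRNA length: every sequence of 25 to 31 nt that the deposited annotation of mouse testis libraries put in the class named others, outside its classes for miRNAs, piRNA clusters, transposons, genes and non-coding RNAs. They were 469764 of the 3075975 distinct sequences of that length and of the 4496542 distinct sequences in all. The wild type libraries 1 and 2 held 145790 and 152192 of them, and the Hsf5 knockdown libraries 1 and 2 held 110232 and 190385. None of them carried another class in any library.

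The libraries held small RNAs from whole testes taken at 16 days of age, 2 from wild type mice and 2 from mice labelled Hsf5 knockdown, which the deposited table itself calls KO. The labels give no strain and no allele or agent for the knockdown, and they call the libraries biological replicates. Hsf5 encodes heat shock factor 5, a transcription factor of the testis, and the series set out to follow piRNA expression changes between the genotypes. Values per library below are given in the order wild type 1, wild type 2, knockdown 1 and knockdown 2. RPM are reads scaled to 1000000 counted reads, and p-values measure the spread between these 4 libraries only.

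PIWI-interacting RNAs are germline small RNAs cut from long single-stranded transcripts, and most of them begin with U. Their 3' ends are trimmed and then methylated. Small RNAs that lack this methyl group can receive added uridines or adenosines, called tails, which do not match the genome. In the ping-pong cycle, PIWI proteins cut RNA opposite base 10 of the guide, which leaves an A at base 10 of the new piRNA. In the testis at this age, pachytene spermatocytes have begun to transcribe pachytene piRNA loci, many of them long non-coding RNA genes.

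The libraries held 9260452 to 11117460 counted reads, of which 4352106 to 7025053 were 25 to 31 nt long. A count of 0 allows at most 0.324 RPM in the shallowest library. The spermatocyte miRNA mmu-miR-34c-5p lay at 833 to 1206 RPM, mmu-miR-449a-5p at 8.81 to 31.3 RPM and the Sertoli cell miRNA mmu-miR-202-5p at 188 to 557 RPM. In whole testis, a lower level of an RNA in each cell and fewer cells that make it cannot be told apart. Knockdown 1 stood apart in its lengths and nearly lacked some piRNA loci. Of 76 deposited loci with at least 1000 piRNA reads of 24 to 30 nt and 1 genome place in each of the other 3 libraries, 32 had fewer than 1000 in knockdown 1 and 17 had fewer than 100. These 17 loci held 12.9%, 16.9% and 15.0% of such reads in the other libraries and 215 reads in knockdown 1, and no such locus was under 1000 reads in another library alone. At 12-qE-23911 the reads were 19991, 30152, 2 and 47308. Knockdown 2 stood apart in its bases at fixed positions of the genome, described below, and results are also given without these libraries where that changes them.

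The most abundant unassigned sequence with a place in the mouse genome was a piRNA of the strongest deposited piRNA locus, 17-qA3.3-26735. It lies in the long non-coding gene Gm49794 and has bases at its 3' end that the genome does not hold. Here T stands for U and capitals mark bases that do not match the genome. The first 2 forms are of the piRNA cluster class and the other 4 are unassigned.
Form of 28 nt: tatgagctctatcgggtttctgaaccct
Form of 30 nt: tatgagctctatcgggtttctgaaccctgg
Form of 28 nt with U: tatgagctctatcgggtttctgaaccctT
Form of 28 nt with UU: tatgagctctatcgggtttctgaaccctTT
Form of 29 nt with U: tatgagctctatcgggtttctgaaccctgT
Form of 29 nt with UU: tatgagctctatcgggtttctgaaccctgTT

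All start at the same base, chr17:27576391-27576418 on the plus strand of GRCm39 for the form of 28 nt, and the next 2 bases of the genome are GG. The 29 nt form with 1 U had 1002, 479, 423 and 1665 reads. Its untailed parent had 146, 114, 140 and 565 reads, so the tailed form was the more frequent in every library. The 28 nt form with 1 U had 548, 415, 449 and 1345 reads against 44, 56, 47 and 199 of its parent. With UU it had 446, 287, 245 and 560 reads. Among all sequences of 25 to 31 nt that share the first 20 bases, 80 forms were unassigned and held 8795 reads over the 4 libraries, while 6 forms of the piRNA cluster class held 5050.

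As a class, the unassigned reads took a like share of the piRNA-length reads in both genotypes. The share was 6.45%, 7.15%, 6.71% and 7.2%, or 6.8% ± 0.497 for the wild type against 6.95% ± 0.345 for the knockdown (SD, n = 2; exact two-sided permutation p = 0.667). Only 6 assignments of 2 against 2 libraries exist, so the smallest exact p is 0.33. The class was shallow per sequence: about 61% of its sequences in a library (60.5% to 61.0%) had 1 read, and 82.6% were seen in 1 library only. The 13002 sequences found in all 4 libraries, 2.77% of the class, held 35.9% of its reads. Among distinct sequences of piRNA length, 11.9% and 13.8% were unassigned in wild type and 13.9% and 15.0% in knockdown libraries. The groups did not overlap there, at the smallest p the design allows, 0.33. Wilson 95% intervals of the shares by reads extend by no more than 0.18 points in each direction, and by 0.572 points for the share of A-to-G mismatches below. They cover counting error only, since copies made by PCR are not independent molecules.

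Unassigned reads had the first base of piRNAs. A 5' U stood on 82.4%, 86.7%, 86.2% and 89.1% of them, which overlapped between genotypes (exact permutation p = 0.667). In the piRNA cluster class it stood on 90.4% to 91.8% of reads, so each library had fewer among the unassigned reads, by 4.93 points ± 2.44 (SD over 4 libraries; exact sign-flip p = 0.13, the smallest that 4 libraries allow). Counted once per distinct sequence the order was the other way, with a mean of 82.8% unassigned against 75.9% in the clusters (exact sign-flip p = 0.13). Unassigned reads equal to a cluster piRNA plus 1 base began with U in 93.8% to 94.5%.

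No base prevailed at base 10. An A stood there on 26.1%, 26.1%, 25.1% and 26.9% of unassigned reads (exact permutation p = 1). The mean for A was 26.1%, below that for G (27.1%) and above those for U (24.9%) and C (21.9%). In knockdown 2, A was the most frequent of the 4. Among reads that do not begin with U, an A at base 10 stood on 29.9%, 31%, 27.4% and 36.8%, and in the piRNA cluster class on 27.1% to 30.7%. The difference between the classes there was 1.83 points ± 3.37 (SD over 4 libraries; exact sign-flip p = 0.25).

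Unassigned reads were longer than cluster piRNAs and their last base was mostly U. Reads of 29 to 31 nt made up 43.2%, 44.6%, 24.3% and 49.0% of them, against a mean of 26.8% in the piRNA cluster class, and were more frequent among unassigned reads in 4 of 4 libraries (13.5 points ± 1.49; exact sign-flip p = 0.13). Knockdown 1 was far below the other 3 libraries and knockdown 2 above them, so the genotypes overlapped (exact permutation p = 1). The most frequent length was 27 nt, at 20.3%, 20.1%, 28% and 18.7%. The last base was U on 62.1%, 67.6%, 62.3% and 66.7% of unassigned reads, and on a mean of 23.5% of the cluster reads (difference 41.2 points ± 2.57; exact sign-flip p = 0.13).

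Nearly all of the class could be placed in the mouse genome once the 3' end was set aside. Of the 469764 sequences, 445137 matched GRCm39 as a whole, up to their last 1, 2 or 3 bases, or with 1 mismatch, and every one of these had exactly 1 such place. The other 24627 matched in none of these ways and took 9.15%, 4.63%, 6.07% and 2.55% of reads. Among piRNA cluster sequences of 24 to 31 nt, 94.3% had 1 place. Whether the unassigned class was limited to sequences with 1 place when it was made was not tested. The largest part of the unassigned reads matched all but the last base: 48.4%, 56.3%, 49.9% and 54.0%. Reads that matched as a whole took 23.5%, 20.1%, 24.8% and 26.8%, higher in both knockdown libraries (21.8% ± 2.46 against 25.8% ± 1.39, SD, n = 2; exact permutation p = 0.33, the smallest possible).

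**Figure D1:**
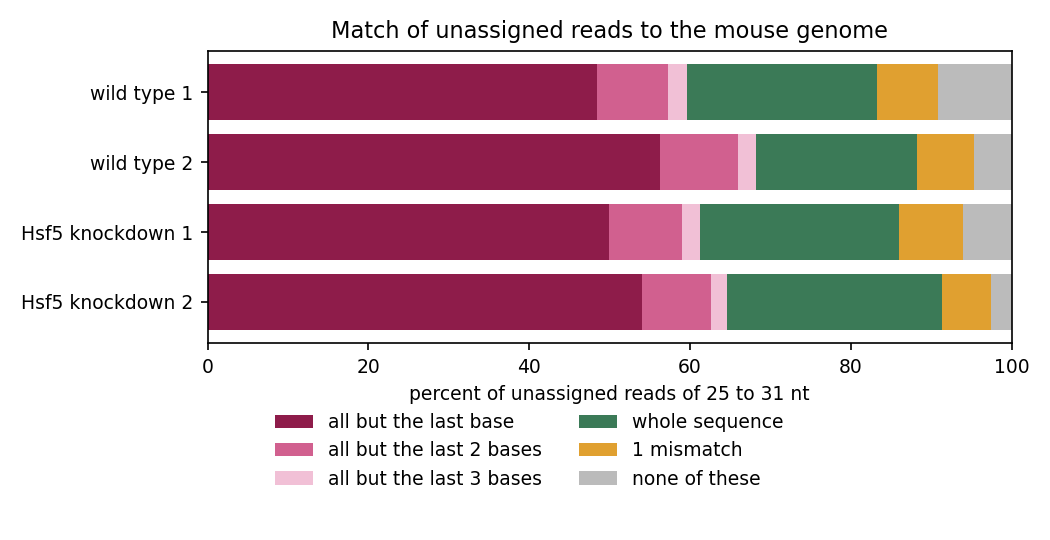
Percent of unassigned reads of 25 to 31 nt (x axis) by how they match the genome, 1 stacked bar for each of the 4 libraries. Reads that match all but the last base take the largest part of each bar, between 48.4% and 56.3%, and whole matches take 20.1% to 26.8%.

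Many unassigned reads became equal to a piRNA of the cluster class in the same library once bases were removed at the 3' end. Removal of 1 base did so for 38.9%, 45.8%, 41.2% and 45.1% of reads (exact permutation p = 1). Removal of 2 bases, where 1 was not enough, added 8.41% and 9.28% to the wild type libraries and 8.17% to each knockdown library. The knockdown lay below the wild type there (8.85% ± 0.609 against 8.17% ± 0.000715, SD, n = 2) at the smallest p possible, 0.33. As a background, removal of 1 base at the 5' end gave a cluster piRNA for 0.273% of the reads of wild type 1 and 0.360% of those of knockdown 2. Of the 667153 reads with 1 added base, 667096 did not match the genome at that base. For 79.6% of the reads with 2 added bases, the first of the 2 did not match the genome. Whether the second matched was not counted for these. The class leaves out reads given to the piRNA clusters, and a piRNA extended by the genome's own base would mostly be one. The count for 1 added base thus follows largely from how the class was defined.

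The added base was nearly always U. Among 1 base tails it was U in 89.7%, 89.3%, 88.7% and 89.9% of reads (exact permutation p = 1) and A in 8.69% to 9.62%. C took 1.11% to 1.39% and G 0.240% to 0.310%. Among tails of 2 bases, UU took 60.1% to 65.4%, UA 7.80% to 8.92% and AU 7.15% to 8.07%. GU took 9.29% to 12%. Of the 131692 reads with 2 added bases, 26879 matched the genome up to the last base, so that only their final base was untemplated.

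The abundant tailed members came from the divergent pair of loci at 17-qA3.3, 17-qA3.3-26735 on the plus strand and 17-qA3.3-27363 on the minus strand. Of the 10 most abundant members with a place in the genome, 8 were cluster piRNAs of this pair with 1 added U. The other 2 were mitochondrial. They are printed to show the added U beside the levels.
Member 3, 26 bases at chr17:27577194-27577219, plus strand: tagcggacacctgtgcttcattctgtT
Member 4, 26 bases at chr17:27576307-27576332, plus strand: taagagctagaatgccccctctggagT
Member 5, 26 bases at chr17:27537577-27537602, minus strand: tgatagctgagctctgagtaggtagtT
Member 7, 26 bases at chr17:27535977-27536002, minus strand: tgattacgaaggcttttctctggaagT

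Member 3 had 48.5, 53.0, 68.2 and 83.0 RPM, higher in both knockdown libraries, with a log2 difference of 0.47 (SE 0.62) and an adjusted p of 1.0 (edgeR quasi-likelihood fit, Benjamini-Hochberg). It had 127 to 193 reads per 1000 reads of its parent. Member 4 was tailed far more, with 2168 to 3121 reads per 1000 parent reads, and had 38.8, 44.5, 102 and 23.7 RPM. Knockdown 1 was above and knockdown 2 below both wild type libraries. Member 5 had 44.6, 38.4, 46.8 and 71.4 RPM and 84.5 to 139 reads per 1000 parent reads. Member 7 had 47.8, 46.3, 56.6 and 46.1 RPM, which spans both groups, and 231 to 364 reads per 1000 parent reads. So the ratio of tailed to untailed reads differed by more than 10 times between piRNAs of 1 pair of loci.

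Tails were measured against their parents to compare libraries with different piRNA levels. For each cluster piRNA of 24 to 30 nt with 1 place in the genome, unassigned reads with 1 added base were counted where the genome continues with another base. The rate for U was 75.2, 76.7, 64.7 and 79.6 reads per 1000 parent reads, or 75.9 ± 1.11 for the wild type against 72.1 ± 10.5 for the knockdown (SD, n = 2; exact permutation p = 1). Knockdown 1 lay below and knockdown 2 above both wild-type libraries. Without knockdown 1 the difference was 3.62 and without knockdown 2 it was -11.2 reads per 1000. The rate for A was 7.62, 8.25, 7.14 and 7.94 (exact permutation p = 0.667). C lay at 0.865 and 0.911 in wild type libraries and at 0.957 in either knockdown library, and G at 0.201 to 0.223. Tailed reads were also found in other classes of the annotation, and with them the rate for U rose to 112, 109, 96.2 and 112 reads per 1000 (exact permutation p = 0.667). In the genes class, 10.8%, 18.1%, 15.5% and 16.2% of the 25 to 31 nt reads became equal to a cluster piRNA once 1 or 2 bases were removed at the 3' end, whether or not the genome holds those bases. No read of the LINE, LTR and SINE classes did. Only parents of the piRNA cluster class were searched, so this gives no rate of tails on piRNAs of those classes.

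Longer piRNAs carried an added U more often in 4 of 4 libraries, least so in knockdown 1. Over parents of 24 to 27 nt, the length bound mainly by the PIWI protein MILI, the rate was 62.8, 60.9, 64.0 and 59.2 per 1000. Over parents of 29 and 30 nt, which are bound mainly by MIWI, it was 108, 121, 73.0 and 124. The long parents were thus at 1.73, 1.99, 1.14 and 2.10 times the rate of the short ones, and knockdown 1 had the smallest ratio. Over the 44 loci with at least 1000 parent reads in each library, the ratios were 1.63, 1.89, 1.14 and 1.98, so knockdown 1 was also lowest without the loci it nearly lacks. At 24 nt the rate was 41.5 and 44.5 in wild type and 50.7 and 48.3 in knockdown libraries, the only parent length where the genotypes did not overlap for U (exact permutation p = 0.33). For A the order of lengths was reversed: the rate at 29 and 30 nt was 0.716, 0.757, 0.465 and 0.835 times that at 24 to 27 nt.

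**Figure D2:**
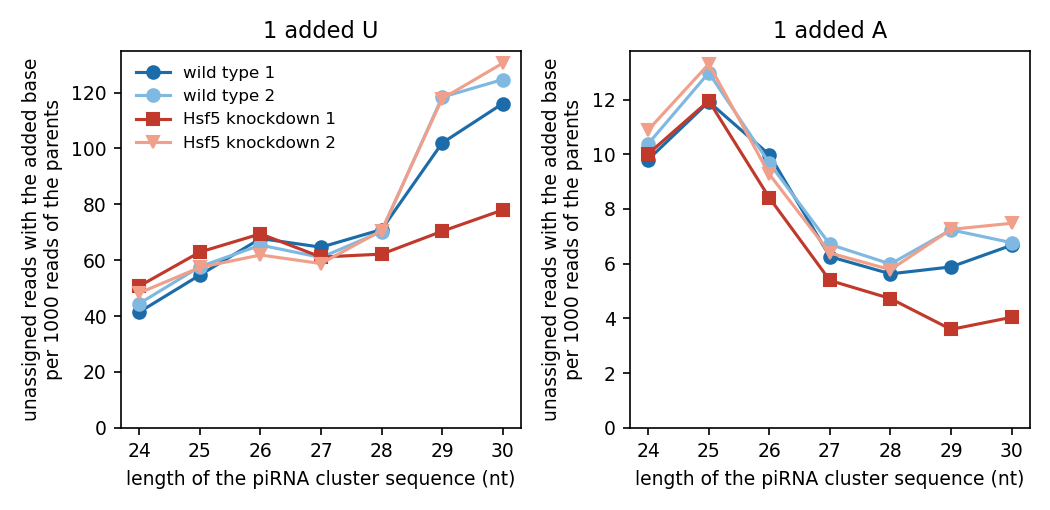
Unassigned reads with 1 added U (left) or A (right) per 1000 reads of their cluster piRNAs (y axes, starting at 0) by the length of the piRNA in nt (x axis), 1 line for each library. The rate for U climbs to 116 to 131 per 1000 at 30 nt in 3 libraries and stays at 78.0 in knockdown 1, while the rate for A is highest at 25 nt in every library.

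The last base of the piRNA went with the rate. Parents that end in G had an added U at 149 to 173 per 1000 in the 4 libraries, those that end in U at 49.2 to 60.5, in A at 40.1 to 45.3 and in C at 29.1 to 44.6. Parents that begin with U were at 66.9 to 81.9 and those that begin with A at 38.5 to 41.2. The most tailed piRNAs had more tailed than untailed reads. Of 810 members with 1 added base and at least 100 reads over the 4 libraries, 153 had more reads than their parent. In 121 of these the parent ended in G, as it did in 518 of the 810, and in 152 the added base was U. The median was 39.3 tailed reads per 100 parent reads, among members chosen for their many reads.

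The rate differed between piRNA loci. At 17-qA3.3-27363 it was 125, 116, 106 and 117 unassigned U tails per 1000 parent reads. At 2-qE1-35981 on chromosome 2 it was 103, 105, 81.6 and 111, and at 14-qA3-19970 on chromosome 14 it was 103, 100.3, 80 and 107. The strongest locus, 17-qA3.3-26735, had only 56.6, 54.4, 46.2 and 55.2, but 139, 134, 113 and 138 with the tailed reads that the annotation gave to other classes. At 9-qC-10667 on chromosome 9, unassigned tails were at 0.0307 to 0.309 per 1000 while those of all classes were at 98.9 to 167. Over 44 loci with at least 1000 parent reads in each library, the rate over all classes had medians of 97.1, 92.9, 70.1 and 100.5 per 1000, and knockdown 1 was lowest at 36 of them. These were 29 of the 30 loci named by chromosome band, and 7 of the 14 named after a gene. For the rate of unassigned tails alone, knockdown 1 was lowest at 21 of the 44, with medians of 42.6, 35.1, 22.0 and 43.6. Some of the 44 had no unassigned tail in any library, so knockdown 1 could not be lowest there, and such loci lower these medians. An example is 15-qE1-3710, where tails in other classes brought the rate to 118, 107, 94.3 and 132. The loci that knockdown 1 nearly lacks are not among the 44.

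Among the tails of 2 bases, the most abundant after the piRNA above were UU forms of long piRNAs. Capitals here mark the bases added to the parent. The first, at chr17:27538052-27538080 on the minus strand in 17-qA3.3-27363, had 137, 96, 52 and 139 reads, lowest in knockdown 1, against 948, 738, 814 and 403 of its 29 nt parent. The genome continues there with CT, so its last U matches the genome and only the U before it does not. The second, at chr7:73474742-73474770 on the plus strand in the long non-coding gene Gm21269 of locus 7-qD2-11976, had 68, 128, 0 and 124 reads. Its parent had 902, 1805, 0 and 1782, so both were missing from knockdown 1.
UU form on chromosome 17: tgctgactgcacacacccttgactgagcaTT
UU form on chromosome 7: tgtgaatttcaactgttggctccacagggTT

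A smaller part of the class differed from a cluster piRNA of its library by 1 internal base. It took 3.86% and 3.87% of the unassigned reads of wild type and 4.79% and 4.62% of those of knockdown libraries (3.87% ± 0.0119 against 4.71% ± 0.122, SD, n = 2; exact permutation p = 0.33, groups not overlapping). When the parent could come from any of the 4 libraries the sign turned, with a difference of -0.106 points. Per 1000 reads of cluster piRNAs these reads numbered 5.62, 4.99, 6.19 and 6.03, against 51.7 to 61.4 with 1 added base. In 91.6% to 93.9% of the sequences the parent had more reads, with a median of 1 read for the member and 27 to 53 for the parent. A-to-G changes, the kind that A-to-I editing gives, made up 12.6%, 14.1%, 11.2% and 16.1% of mismatch reads (exact permutation p = 1). U-to-G changes made up 8.09%, 8.75%, 8.56% and 28.2%, so knockdown 2 stood apart.

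Many mismatch reads fell on few positions of the genome. Over all unassigned reads without an N and with 1 mismatch to GRCm39, 104458 reads lay at 46719 combinations of position and base, and 77.9% of these had 1 read. The 41 with at least 200 reads held 27.1% of the reads. At these positions the libraries differed, and mostly not by genotype. At 20 positions, 10 in locus 8-qC5-8200, 9 in the pair of loci at 6-qF3 and 1 in 11-qE1-9443, at least 84.5% of reads in both wild-type libraries and knockdown 1 had a base other than the reference and none did in knockdown 2. At 7 positions, all in the pair at 17-qA3.3, the other base was found in both replicate 1 libraries and in neither replicate 2 library. At 6 positions outside the deposited loci every read in all 4 libraries had the other base. Another 5 positions had the other base in at most 1% of the reads of 3 libraries and in 10.1% to 21.5% of those of knockdown 2, and in all 5 the change was U to G in the read.

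The 3 mismatch members of highest level belonged to these patterns. The first 2 are printed below. The third, with C16A at chr17:27576411-27576435 in 17-qA3.3-26735, had 208, 0, 307 and 0 reads and is not printed. A member with G14A, of lower level, is printed as well. Capitals mark the base that differs, positions are counted from 1 at the 5' end, and the reference form stands under each member.
Member with C6G: taggcGagaatgtatctgctaggcaca
Its reference form: taggcCagaatgtatctgctaggcaca
Member with T25G: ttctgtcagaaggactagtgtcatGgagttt
Its reference form: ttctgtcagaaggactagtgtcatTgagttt
Member with G14A: taagactactgggActgcagaataga
Its reference form: taagactactgggGctgcagaataga

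The member with C6G, at chr17:27565015-27565041 on the plus strand of locus 17-qA3.3-26735, had 674, 0, 858 and 0 reads. Its reference form had 0, 1, 1 and 0 reads. It was thus a frequent piRNA of both replicate 1 libraries and missing from both replicate 2 libraries. Over all reads at that position, 1284 reads of wild type 1 and 1498 of knockdown 1 had the other base and 6 and 3 had the reference base. In the replicate 2 libraries 0 had the other base and 12 and 4 the reference base. The member with T25G, at chr5:149747267-149747297 on the minus strand of locus 5-qG3-23659, had 0, 0, 0 and 741 reads against 314, 405, 5 and 312 of its reference form. The member with G14A, chosen after its values were seen, lies at chr8:92916144-92916169 on the plus strand in the long non-coding gene Gm64122 of locus 8-qC5-8200. It had 79, 141, 112 and 0 reads against 0, 0, 0 and 230. The bases of these libraries therefore separate them in ways that cross the genotypes, and the origin of the bases was not tested.

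**Figure D3:**
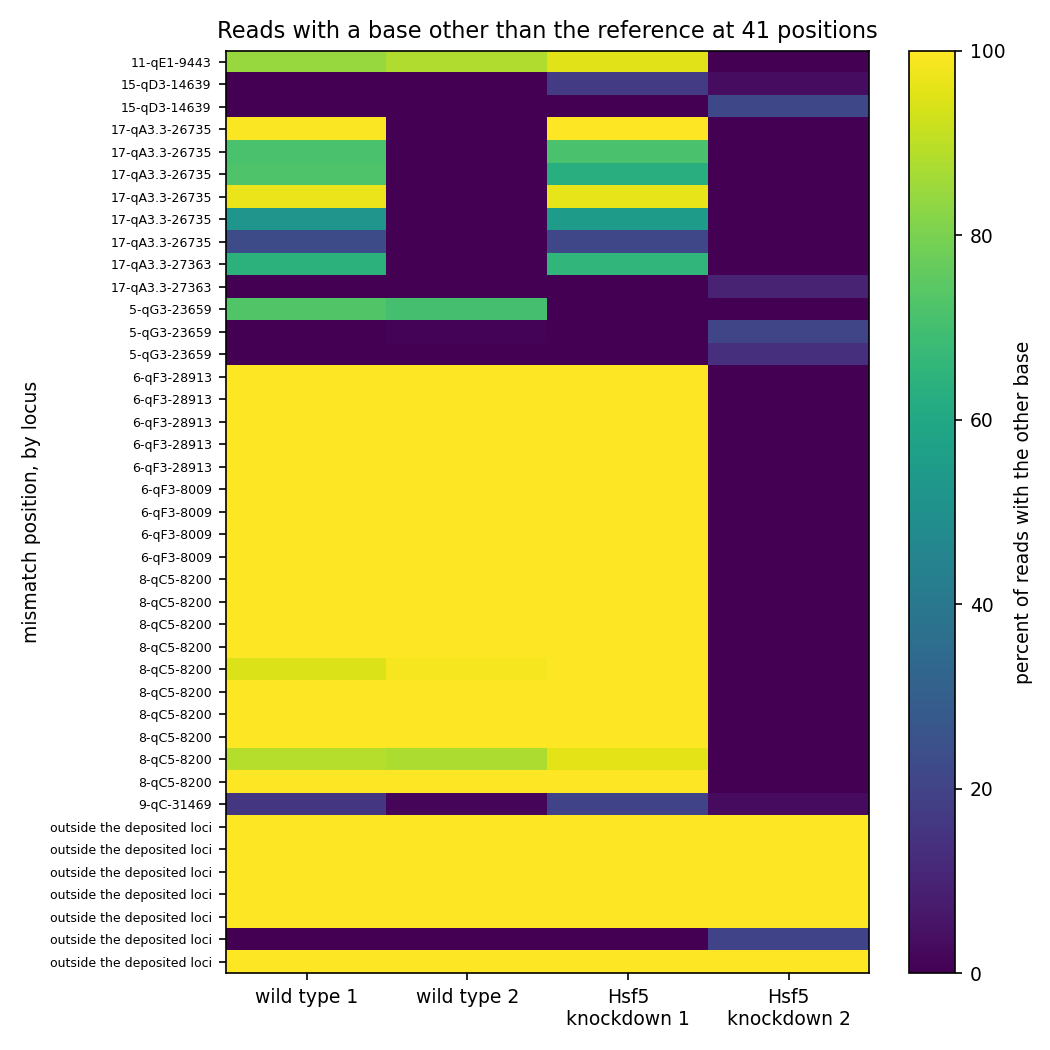
Percent of reads with a base other than the reference (colour, 0 to 100) at the 41 mismatch positions with at least 200 reads (rows, labelled by locus) in each library (columns); a cell can rest on few reads. The rows of 8-qC5-8200 and 6-qF3 are at 87.7% to 100% in 3 libraries and at 0 in knockdown 2, and 7 rows of the 17-qA3.3 pair are at 0 in both replicate 2 libraries.

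The remaining large part, 371691 reads over 164308 sequences, matched the genome as a whole at 1 place, outside the deposited piRNA loci. Inside such a locus lay 0.144% to 0.427% of these reads. That share is low by definition, since reads given to a piRNA locus are not in the class. Within 50 kb of a locus lay 22.1%, 37.8%, 29.3% and 34.0%. In the GENCODE M39 annotation, 30.3% to 36.3% of the reads lay antisense to a gene, 32.4% to 35.3% between genes, 17.3% to 22.8% on exons in sense and 11.8% to 13.4% in introns in sense. They were concentrated: of 19996 windows of 20 kb with a read, the 10 of highest mean RPM held 26.9% of the reads and the first 100 held 47.6%. The strongest window, at chr17:66500001-66520000, had 501, 1006, 641 and 1229 RPM, with 91.5% of reads beginning with U and nearly all on the minus strand. It lies next to locus 17-qE1.1-7037, and the window before it, from 66480001, had 405, 789, 460 and 945 RPM. In both, the replicate 2 libraries were the highest of each genotype. Reads past the end of 15-qD3-14639, at chr15:74520001-74540000, were 1066, 1685, 1459 and 2916.

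The mitochondrial genome was the exception in first base among the 10 windows of highest mean RPM. It had 1571, 858, 627 and 3380 reads, of which 0.948% began with U. At a lower level, the window at chr13:24100001-24120000 had 19.0% of reads beginning with U. The leading mitochondrial members lie on the minus strand at chrM:16161-16188 and chrM:16162-16188. They are printed as the 2 untailed sequences among the 10 most abundant with a place in the genome.
Mitochondrial member of 28 nt: gaattgatcaggacatagggtttgatag
Mitochondrial member of 27 nt: gaattgatcaggacatagggtttgata

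The 28 nt member had 28.6, 22.5, 14.8 and 133 RPM and the 27 nt member 51.5, 34.4, 23.6 and 75.5 RPM. Both were highest in knockdown 2 and lowest in knockdown 1.

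No single unassigned sequence differed between the genotypes by the test over all sequences. Across 103209 sequences of every class, the edgeR quasi-likelihood fit called 0 at a Benjamini-Hochberg adjusted p under 0.05 in either direction (0%), and 0 of the 4417 unassigned sequences among them. DESeq2 called 0 too. By p alone, 8 members were higher and 45 lower at 0.05 unadjusted, 1.2% of the members tested against 0.709% of all sequences tested. In simulated data with the spread of these libraries the same test recovered 0% of 4-fold changes among sequences. Without knockdown 1 it called 331 members, 53 higher and 278 lower, and without knockdown 2 it called 507, 17 higher and 490 lower. These were 7.49% and 11.5% of the members tested, below the 8.82% and 14.3% called among all sequences. The members of lowest p among those lower were 2 forms of 1 piRNA of locus 5-qG3-23659 with the mismatch T6C. The longer had 88, 107, 0 and 0 reads, but its reference form, with 35, 53, 0 and 53 reads, was itself missing from knockdown 1. The third of those lower, with C21A in 6-qF3-8009, had 85, 104, 2 and 0 reads, against 0, 0, 0 and 30 of its reference form. Its mismatch lies at chr6:127766752, a position where knockdown 2 stood apart as described above. Over all reads there, knockdown 2 had 539 with the reference base and 0 with the other, and knockdown 1 had 0 and 27. Among those higher, the first was a sequence with T1G in 2-qE1-35981, at 0, 0, 18 and 40 reads. The second, in antisense to Sgsm2 on chromosome 11, had 0, 0, 10 and 32 reads (edgeR adjusted p = 1.0). The third, with T6G in 17-qA3.3-26735, had 3, 1, 26 and 31 reads. Each of these members of lowest p, lower or higher, passed the filter of 1 CPM in at least 2 libraries only through the group where it was high. Their p are thus no support for a difference.

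Summed in windows, the whole-matching reads did differ at a few places. This test was added after the data were seen. Of 1093 windows tested, 8 were called by the edgeR quasi-likelihood fit at a Benjamini-Hochberg adjusted p under 0.05 (0.732%), all of them higher in the knockdown. At 0.05 unadjusted, 58 windows were higher and 14 lower. In simulated data with the fitted spread the test recovered 27% of 4-fold changes. The count rests on few libraries: it was 0 without wild type 1 or without wild type 2, 9 without knockdown 1 (4 higher, 5 lower) and 34 without knockdown 2 (10 higher, 24 lower). DESeq2 called 5. Of the 8 windows, 3 passed the filter of 1 CPM in 2 libraries through the knockdown libraries alone, as did 48 of the 1093, so their calls are no support for a difference. With a filter that ignores the groups, at least 10 reads over the 4 libraries, 0 of 3702 windows were called. With the replicate number as a block 0 were called, and the 8 windows had adjusted p of 0.626 to 0.701.

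The called windows of highest RPM were 3 neighbours on chromosome 11 around the genes Mettl16, an RNA methyltransferase, Mnt, a transcription factor of the MYC network, and Sgsm2, a regulator of small GTPases. The window at chr11:74740001-74760000 had 13.6, 21.9, 164 and 221 RPM, with a log2 difference of 3.34 (SE 0.64, adjusted p = 6.24e-04). The window from 74720001 had 6.48, 8.75, 65.6 and 75.7 RPM (log2 difference 3.15, SE 0.65, adjusted p = 0.00179), and the one from 74700001 had 2.16, 2.48, 29.9 and 58.2 RPM (4.08, SE 0.70, adjusted p = 6.99e-05), by the same edgeR test. Both knockdown libraries lay far above both wild-type libraries in all 3. With any 1 library left out the log2 differences stayed between 2.83 and 4.25, and with the replicate number as a block they were 3.38, 3.14 and 4.09, with adjusted p of 0.681, 0.681 and 0.626. With at least 10 reads over the libraries as the filter, the adjusted p were 0.209, 0.209 and 0.0578. With scaling by mature miRNA reads, the first 2 windows were not called, at adjusted p of 0.0812 and 0.119 in the edgeR fit. All 3 passed the filter of the reported fit in both genotypes. Reads of every class that match these windows did not separate the genotypes: they were 436, 266, 413 and 492 RPM in the first window, 793, 520, 592 and 770 in the second and 321, 252, 218 and 335 in the third. Unassigned reads were 26%, 5.82% and 8.31% of them. Only 32.3%, 24.9% and 18.1% of the reads of every class had 1 place in the genome, and over these the windows had 19.0, 28.1, 206 and 268 RPM, then 59.4, 69.9, 251 and 291 RPM, and 19.2, 19.7, 49.3 and 114 RPM. Among reads with 1 place, the classes other than the unassigned were at 5.40, 6.16, 41.9 and 47.4 RPM in the first window and at 17, 17.2, 19.3 and 55.5 RPM in the third, where knockdown 1 was close to the wild type. The nearest deposited piRNA locus, pi-Slc43a2, was 672561 bases from the middle of the first window.

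Reads of this region ran outward on opposite strands. In chr11:74695001-74735000, 1925 reads lay on the minus strand and 115 on the plus strand. In chr11:74735001-74775000, 5085 lay on the plus strand and 0 on the minus strand. The minus-strand part had 46, 46, 683 and 1150 reads, or 4.14, 4.97, 71.0 and 105.5 RPM. The plus-strand part had 198, 268, 1860 and 2759 reads, or 17.8, 28.9, 193 and 253 RPM. U was the first base of 88.0% of the former and 89.0% of the latter. They were 897 and 1730 distinct sequences. The region was bounded after its values were seen, so its sums are a description. Of the genes it covers, Mettl16 (74661655 to 74719351) and Mnt (74721338 to 74736836) lie on the plus strand and Sgsm2 (74740078 to 74788877) on the minus strand, and 98.9%, 56.4% and 81.4% of the unassigned reads of the 3 windows, from right to left, were antisense to a gene. Reads that the annotation put in the genes class were 48.3, 54.2, 163 and 188 RPM in the middle window. They were 12.5, 13.1, 11.3 and 39.5 RPM in the window from 74700001, where knockdown 1 was not raised, and at most 0.367 RPM in the one from 74740001. The sequence in antisense to Sgsm2 that had the second lowest p among the higher members was an unassigned sequence of the window from 74740001. It had entered its test through the knockdown libraries alone.
Member at chr11:74741890-74741915, plus strand: tagggcacatcgagaatggctggatc

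**Figure D4:**
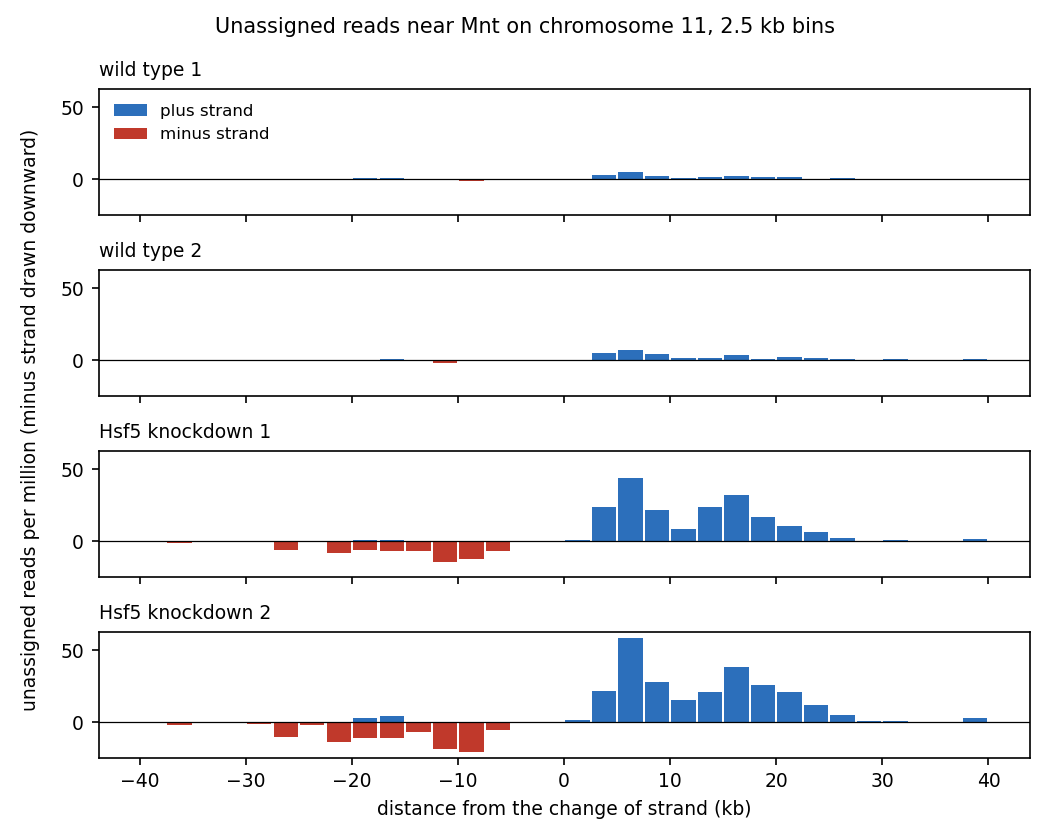
Unassigned RPM per 2.5 kb bin (y axis, plus strand upward and minus strand downward) by distance in kb from the change of strand on chromosome 11 (x axis), 1 panel for each library on the same scale. Both strands are low in the wild-type libraries, at 4.14 to 28.9 RPM in all per part, and high in both knockdown libraries, at 71.0 to 253 RPM.

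The other 5 called windows had lower levels, at most 12.6 RPM in any library. The window at chr9:70080001-70100000, antisense to the long non-coding gene Gm70237, had 0, 0, 29 and 76 reads, at least 34.8-fold higher in the knockdown against a floor of 3 reads over the wild-type group. It had the lowest adjusted p of the 8, 9.93e-06, but entered the test through the knockdown libraries alone. Its adjusted p was 0.0510 with at least 10 reads over the libraries as the filter. Reads of every class that match this window were 935.8, 603.4, 460.2 and 653.5 RPM. Unassigned reads were 0.381% of them, and 1.01% of them had 1 place in the genome. The nearest deposited locus, 9-qC-10667, was 2421749 bases from its middle. The window at chr10:127340001-127360000, over Stac3, Ndufa4l2 and Shmt2, had 4, 11, 92 and 49 reads (log2 difference 3.26, SE 0.73, adjusted p = 0.0175). Its neighbour from 127320001 had 1, 1, 26 and 14 and also entered through the knockdown alone. The window at chr17:26620001-26640000, near Neurl1b, had 9, 11, 50 and 92 reads (2.64, SE 0.66, adjusted p = 0.0233). The window at chr2:91840001-91860000, in introns of Gm31473 in sense, had 9, 9, 21 and 137 reads (2.74, SE 0.68, adjusted p = 0.0233), where knockdown 2 alone was far from the wild type, and was the third that entered through the knockdown alone. All adjusted p are Benjamini-Hochberg values of the edgeR fit unless DESeq2 is named. Of these 5 windows, the 4 on chromosomes 2, 10 and 17 were not called with DESeq2 (adjusted p of 0.267 to 0.579). Nor were they with scaling by mature miRNA reads (0.178 to 0.380). That on chromosome 9 was called by both (0.00177 and 6.58e-05). As it had entered through the knockdown alone, this is no support for a difference. In each of the 8 windows 85.2% to 93.8% of the unassigned reads began with U.

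**Figure D5:**
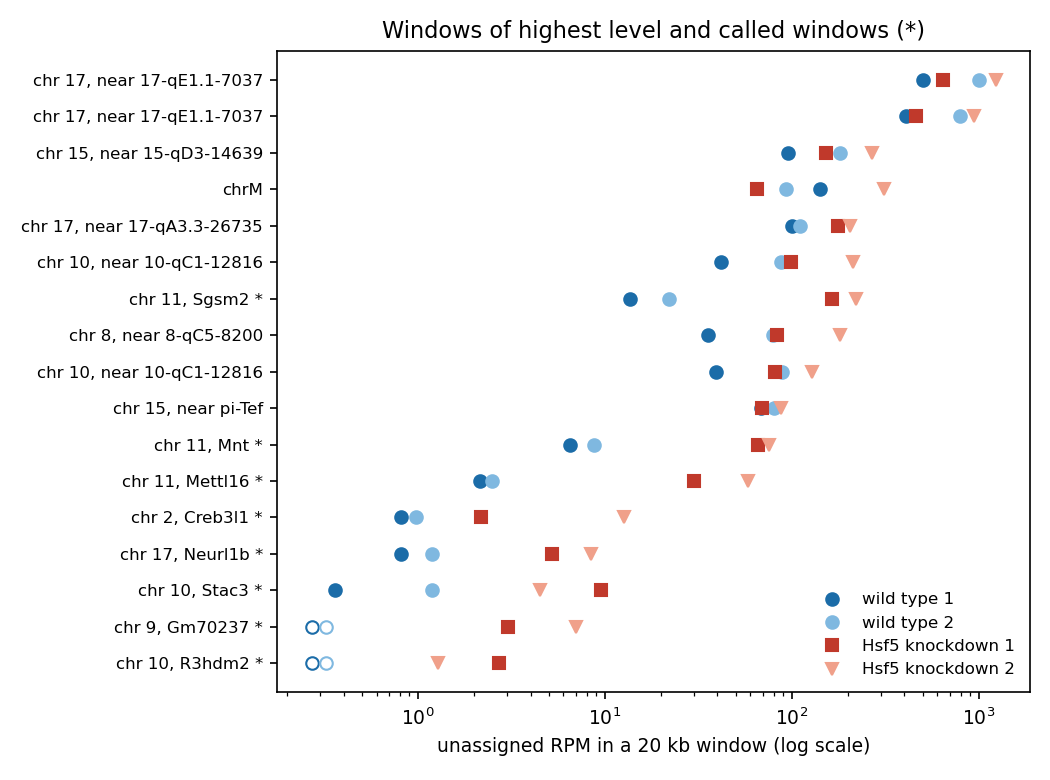
Unassigned RPM in 20 kb windows (x axis, log scale) for the 10 windows of highest level and the other called windows (rows, called ones with a star), 1 symbol for each library, open and drawn at the level of 3 reads where a library had fewer. In the starred rows both knockdown libraries lie right of both wild-type libraries, as at 164 and 221 against 13.6 and 21.9 RPM, while in most other rows the genotypes overlap.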

How the data were processed

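Small RNA libraries were made from total testis RNA by ligation of adaptors to both ends, with inserts of 18 to 40 bases, per the labels' protocol. Per the submitters' processing notes, cutadapt and the build mm39 were used, in a role not stated. Which aligner was run, with how many mismatches, and which class took precedence is not given in the sources used here. A table deposited by the authors gave a raw read count for each sequence, library and annotation, not normalized. It also held a ratio, the authors' scaling factor, equal to 1000000 divided by the mature miRNA reads of the library. Each pair of sequence and library was counted once, which removed 6491165 repeated lines of 12700077. The members, lists and tests were chosen with earlier results of these data known.

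GRCm39, another name of mm39, was searched with a 12-base seed search written for this work and tested on simulated data, and places were annotated with GENCODE M39. Parents were sequences of the piRNA cluster class in the same library. An internal mismatch lay at base 2 or later and before the last base. Shares were compared by exact two-sided permutation tests, and with the cluster class by exact sign flips over the 4 libraries. Sequences of every class, and windows of 20 kb, were tested with edgeR 4.0.16 (quasi-likelihood F test, TMM factors, 1 CPM in at least 2 libraries) in R 4.3.3, with DESeq2 1.42.0 as an alternative. Members were named by a rule. It took the 10 most abundant, and the 3 most abundant with 1 added base, 2 added bases and 1 mismatch. It also took the 3 of lowest p in each direction. Passed over were 2 sequences that matched the genome neither whole, nor up to their last 1, 2 or 3 bases, nor with 1 mismatch. Alternatives were other weights of a sequence, at least 2 reads per sequence, parents from any library, other scaling, a replicate block and leaving out each library. The window test and the tail rates were chosen after seeing the data.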

Additional observations from a re-analysis of the deposited data

How the results depend on the processing

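Differences below are knockdown minus wild type. With 1 library left out, the share of unassigned reads ranged from -0.200 to 0.503 points, that of distinct sequences from 0.636 to 2.51, the 5' U share from 0.976 to 5.25, A at base 10 from -0.995 to 0.819, reads of 29 to 31 nt from -19.7 to 5.11, 1 base tails from -2.67 to 4.29, 2 base tails from -1.11 to -0.247, mismatches from 0.756 to 0.928, the U share of tails from -0.827 to 0.376, the A-to-G share from -2.20 to 2.71, whole genome matches from 2.26 to 5.73 and the U tail rate from -11.2 to 3.62 reads per 1000. Signs also turned for 1 base tails with each distinct sequence counted once (-1.74) or with parents from any library (-0.381), for mismatches with parents from any library (-0.106), and for the A-to-G share with at least 2 reads per sequence (-2.70). None of these shares could pass a threshold in this design. The count of members called was 0 to 507 with 1 library left out, and that of windows 0 to 34. Windows called, 8 in the reported fit, were 4 with DESeq2 size factors, 3 with scaling by mature miRNA reads, 5 with DESeq2, 0 with a filter of 10 reads over the libraries and 24 with windows of 10 kb. With the replicate number as a block, 0 members and 0 windows were called. The labels give the replicate numbers without saying what they share. Deviations of equally numbered libraries correlated at 0.41 over the members tested and 0.26 over the windows. The fit without a filter was not run. Depth limits single members, most of which had 1 read.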

Other observations

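Among distinct unassigned sequences, 0.784% to 1.19% held a base read as N, and such reads numbered 1174, 1313, 977 and 2457. A single position on chromosome 11 outside the deposited loci, 108902845, had a base other than the reference in every one of 728, 281, 273 and 72 reads, and a position on the X chromosome, 86281998, in every one of 525, 249, 337 and 35 reads. The window at chr17:27360001-27380000 had 352, 254, 984 and 1283 unassigned reads, more in both knockdown libraries, and was not among the windows called. In the tegRNA class of the annotation, 9.0%, 16.3%, 15.8% and 14.6% of the 25 to 31 nt reads became equal to a cluster piRNA after removal of 1 or 2 bases at the 3' end.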
